A study of Mus musculus with 6 samples.

Results

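Phox2a, Isl1, Hand1, Hand2, Gata2, Gata3, Tfap2b and Insm1, 8 transcription factor genes of the sympathoadrenal lineage, were described in mouse carotid body and adrenal medulla. They were chosen by name, with earlier results of these data known. They are the rows of the deposited expression table that carry these symbols, and all 8 were found among its 26728 entries. All 8 also passed the filter of 1 RPKM in at least 3 libraries that left 13357 genes to test. RPKM is a read count scaled to mRNA length and to the depth of the library. The RNA was amplified before library construction, and the effect of amplification on comparisons between genes was not tested.

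The sympathoadrenal lineage is the branch of the neural crest that gives rise to sympathetic neurons and to the catecholamine-secreting chromaffin cells of the adrenal medulla. The glomus cells of the carotid body, which sense arterial oxygen, are also of neural crest origin and also make catecholamines. In the embryo Phox2a, a homeodomain gene, acts in this network from early on. Hand2, Gata3, Gata2, Isl1 and Insm1 act with it or after it to turn on the enzymes of catecholamine synthesis and the secretory machinery.

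The 6 libraries came from untreated adult C57/BL6 mice, 3 from pools of carotid bodies and 3 from pools of adrenal medullas, and the labels name no transgene or deletion in either group. Per the series' design note, a pool drew on 10 mice and held 18 carotid bodies or 10 adrenal medullas. Thus n counts pools of whole dissected tissue, and p-values measure the spread between these pools. In bulk tissue, fewer cells of a type and less RNA per cell cannot be told apart.

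The libraries held 13266225 to 16445925 reads, recovered from the RPKM values. Of 11 markers of chromaffin or glomus cells, 5 were lower in the carotid body, 1 was higher and 5 were not called; they summed to 3011 to 4044 RPKM in the carotid body pools and 15055 to 24847 RPKM in the adrenal medulla pools. The 7 tested adrenal cortex markers were all lower in the carotid body, with sums of 14.3 to 105 RPKM in the carotid body pools and 8784 to 12082 RPKM in the adrenal medulla pools, the highest carotid body sum being that of pool 1. The 8 markers of smooth muscle and pericytes, the 8 of fibroblasts and the 7 tested of glia were all higher in the carotid body. Adipocyte markers summed to 3119.5 RPKM in carotid body pool 2 and to 248 and 422 RPKM in pools 1 and 3, against 219.5 to 701 RPKM in the adrenal medulla pools. Over all genes tested, 14.2% were higher and 7.73% lower in the carotid body. The part of these cell types in the results below was not tested.

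Gata3, Gata2, Hand1 and Tfap2b were lower in the carotid body than in the adrenal medulla, and Hand2, Insm1, Isl1 and Phox2a were not called either way. The test was limma on log2(RPKM + 1) over all 13357 genes, two-sided, and a gene was called where its p, adjusted by Benjamini and Hochberg's method, was under 0.05. Of the 8 genes, 4 were called lower, against 7.73% of all genes tested, and 0 were called higher, against 14.2% (21.9% in either direction). Of the 4, Hand1 and Tfap2b were under 1 RPKM in every carotid body pool, so they passed the filter through the adrenal medulla pools alone, and their place in this count is no support for it. Of the 4 genes not called, Hand2 and Insm1 had an unadjusted limma p under 0.05. The median log2 difference of the 8, carotid body minus adrenal medulla, was -1.33, against 0.02 over all genes tested.

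**Figure D1:**
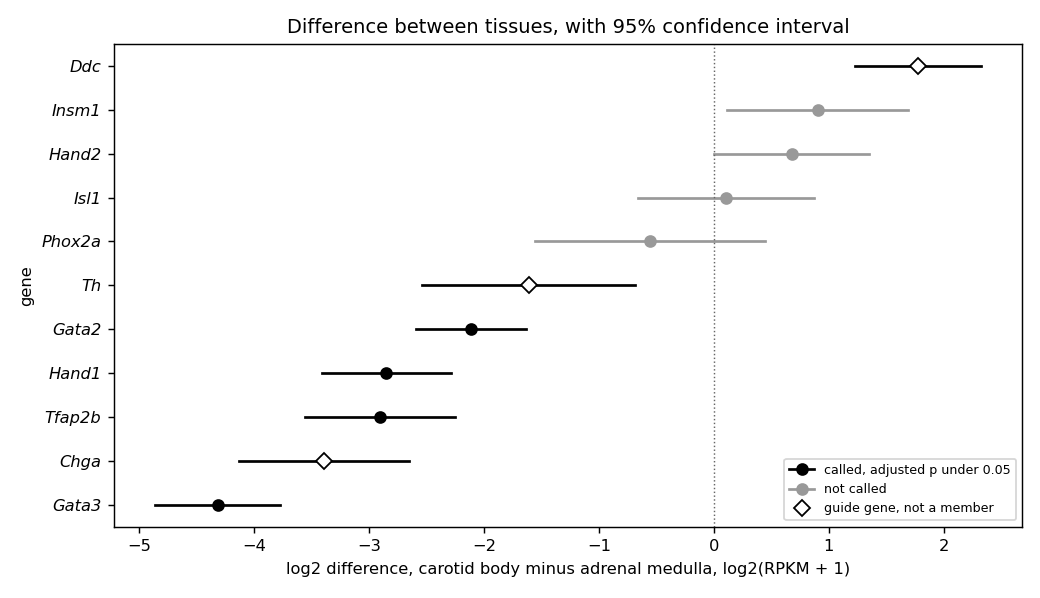
Log2 difference, carotid body minus adrenal medulla, of the 8 transcription factor genes and of the guide genes Th, Chga and Ddc, with its 95% confidence interval from limma (x axis, log2(RPKM + 1) scale; y axis, gene). Black marks are called genes, grey ones are not called, and open diamonds are guide genes; Gata3 lies farthest to the left at -4.32 and Ddc farthest to the right at 1.78.

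The pools of the tissues did not overlap for 6 of the 8 genes, where 37.0% of all genes tested did not. The carotid body pools were all lower for 4 of them, against 14.7% of all genes, and all higher for Hand2 and Insm1, against 22.3%. Hand1 and Tfap2b, among the lower ones, passed the filter through the adrenal medulla pools alone. That fixed their order in advance, so their place in these counts is no support for them. Summed over the 8 genes, the level was 165, 204 and 237 RPKM in the carotid body pools and 269.6, 361 and 244 RPKM in the adrenal medulla pools. All carotid body sums were lower, though that of carotid body pool 3 (237 RPKM) came close to that of adrenal medulla pool 3 (244 RPKM). Gata3 alone held 82.8, 79.1 and 54.0 RPKM of the adrenal medulla sums and 3.05, 2.34 and 2.45 RPKM of the carotid body sums.

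**Figure D2:**
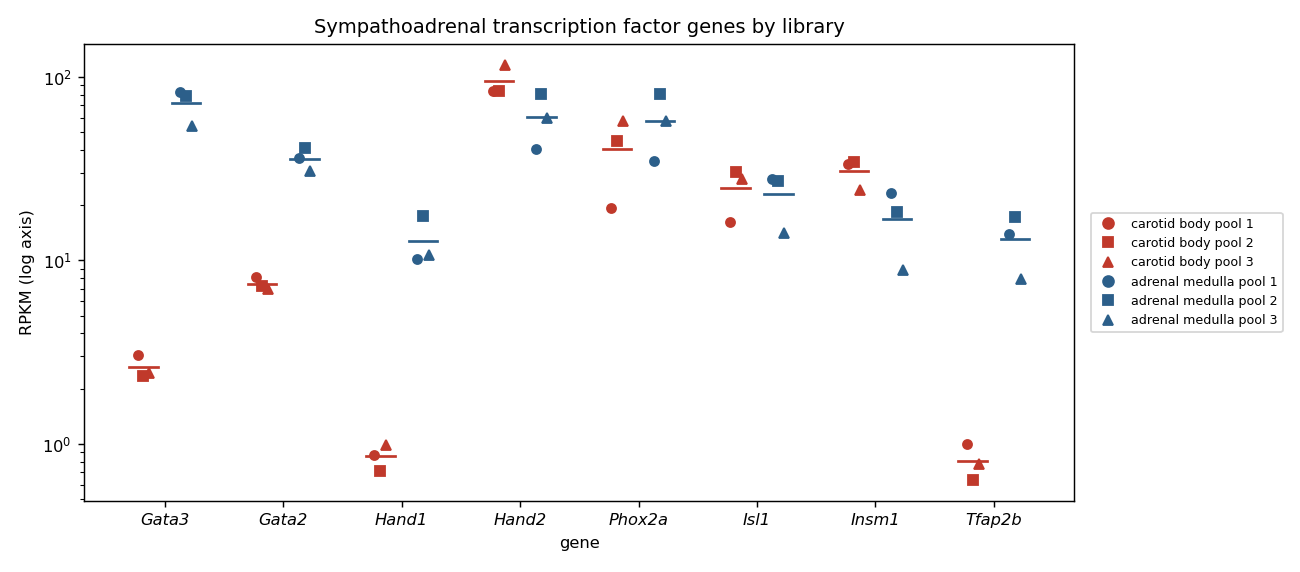
RPKM (log y axis) of the 8 transcription factor genes (x axis) in each of the 3 carotid body pools (red) and 3 adrenal medulla pools (blue), with the mean of each tissue as a bar. Gata3, Gata2, Hand1 and Tfap2b are lower in all red pools than in all blue ones, whereas the tissues overlap for Phox2a and Isl1.

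Both GATA zinc finger genes were lower in the carotid body, and Gata3 had the widest gap of the 8. Gata3, which maintains sympathetic and chromaffin cells in the mouse, had 3.05, 2.34 and 2.45 RPKM in the carotid body pools and 82.8, 79.1 and 54.0 RPKM in the adrenal medulla pools. The tissues did not overlap, and carotid body pool 1 was the highest of its tissue. That pool also had the most adrenal cortex transcript of its tissue, and 16.8 RPKM of Pnmt, the enzyme that makes adrenaline, against 1.95 and 1.81 RPKM in pools 2 and 3. Gata3 averaged 2.61 ± 0.382 RPKM in the carotid body and 72.0 ± 15.7 RPKM in the adrenal medulla (SD over 3 pools). The log2 difference was -4.32 ± 0.24 (SE; limma adjusted p = 1.35e-05), and -4.40 without carotid body pool 1. In reads, Gata3 was counted 144, 101 and 124 times in the carotid body pools and 3624, 3676 and 2891 times in the adrenal medulla pools.

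Gata2, which acts in sympathetic neurons and is also a gene of blood progenitors, mast cells and endothelium, had 8.14, 7.29 and 6.98 RPKM in the carotid body pools and 36.1, 40.9 and 30.5 RPKM in the adrenal medulla pools. All carotid body pools lay below all adrenal medulla pools. The difference came to -2.11 ± 0.21 on the log2 scale (SE; limma adjusted p = 1.73e-04). Markers of other cells that express GATA genes are given beside this. Mast cell markers summed to 176 to 237 RPKM in the carotid body pools and 2.96 to 10.4 RPKM in the adrenal medulla pools, and all 6 tested were called, each with the carotid body higher. Endothelial markers summed to 385 to 469 RPKM in the carotid body pools and 134 to 186 RPKM in the adrenal medulla pools, with 5 of 8 higher in the carotid body and 3 not called. Of 6 tested markers of T cells and innate lymphoid cells, which express Gata3, 4 were called higher in the carotid body and the other 2, Cd3g and Lck, were not called. Lck was lower in all carotid body pools. The list summed to 223 to 233 RPKM in the carotid body pools and 26.1 to 47.8 RPKM in the adrenal medulla pools. Most of that was Thy1, which neurons and other cells also express, at 217, 212 and 214 RPKM in the carotid body pools and 20.3, 41.7 and 44.0 RPKM in the adrenal medulla pools. The part of these cells in the levels of Gata2 and Gata3 was not tested.

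The balance of the GATA pair differed as well. Gata3 stood at 37.4%, 32.1% and 35.0% of Gata2 in the carotid body pools and at 229.6%, 193% and 177% in the adrenal medulla pools. Gata2 thus had the higher RPKM in every carotid body pool, and Gata3 in every adrenal medulla pool. The ratio was 5.72-fold lower in the carotid body, and the exact two-sided permutation test over the 6 libraries gave p = 0.1, the smallest that 3 pools against 3 allow.

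The HAND genes encode basic helix-loop-helix factors, which bind DNA as pairs with E proteins. Hand1 had 0.872, 0.715 and 0.981 RPKM in the carotid body pools and 10.2, 17.4 and 10.6 RPKM in the adrenal medulla pools. These levels rest on 24, 18 and 29 reads in the carotid body pools and 259, 472 and 332 reads in the adrenal medulla pools, and the tissues did not overlap. The log2 difference was -2.85 ± 0.25 (SE; limma adjusted p = 8.86e-05). The pseudocount of 1 RPKM exceeds the level of Hand1 in every carotid body pool and shrinks this value, which was -3.83 with limma voom on the recovered reads.

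Hand2, which sustains noradrenergic differentiation in mouse sympathetic neurons, had 83.3, 84.1 and 116 RPKM in the carotid body pools and 40.3, 80.6 and 59.9 RPKM in the adrenal medulla pools. Every carotid body pool lay above every adrenal medulla pool, although adrenal medulla pool 2 came close to the lower carotid body pools. The difference was not called, at 0.68 on the log2 scale with a 95% confidence interval of 0.01 to 1.35 (limma adjusted p = 0.152). Markers of sympathetic neurons, another source of Hand2, summed to 633 to 695 RPKM in the carotid body pools and 163 to 203 RPKM in the adrenal medulla pools. In the carotid body 3 of 8 were higher and 1 was lower. Most of the carotid body sum was Gap43, at 337, 435 and 374 RPKM, against 6.50, 6.28 and 4.99 RPKM in the adrenal medulla pools. The median log2 difference of the list was -0.016. Hand1 stood at 1.05%, 0.850% and 0.844% of Hand2 in the carotid body pools and at 25.2%, 21.6% and 17.7% in the adrenal medulla pools, which did not overlap (exact permutation p = 0.1, the smallest possible). Hand1 passed the filter through the adrenal medulla pools alone, and Hand2 was higher in all carotid body pools. That fixed the order of this ratio in advance, so its p is no support for it. In both tissues Hand2 had the higher RPKM of the pair.

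Tfap2b, an AP-2 family gene needed in the mouse for sympathetic and chromaffin development, had 0.995, 0.636 and 0.781 RPKM in the carotid body pools and 14.0, 17.3 and 7.90 RPKM in the adrenal medulla pools. It was counted 89, 52 and 75 times in the carotid body pools and 1160, 1523 and 801 times in the adrenal medulla pools. All carotid body pools were lower. Its log2 difference was -2.91 ± 0.29 (SE; limma adjusted p = 1.71e-04), and -3.96 with limma voom on the reads.

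The bases just before the start sites of Gata3, Gata2 and Tfap2b, which were all lower in the carotid body, are shown with those of Hand2, which was not. RefSeq's promoter table for GRCm38.p6 matched 6 of the 8 genes, Phox2a, Isl1, Hand2, Gata2, Gata3 and Tfap2b, but not Hand1 and Insm1. Each window is the 250 bases before the start site, for Gata3 chr2:9878601-9878850 on the minus strand. On the plus strand lie chr6:88198414-88198663 for the second listed start site of Gata2, chr1:19211804-19212053 for Tfap2b and chr8:57320733-57320982 for Hand2. Each is printed 5′ to 3′. Capitals mark matches on either strand. The letters searched were AGATAA for binding by GATA factors. They were CANNTG for the E-box of helix-loop-helix pairs and GCCNNNGGC for AP-2 factors. They were TAATTA for homeodomain factors and TATAAA for the TATA-binding protein.
Gata3 promoter: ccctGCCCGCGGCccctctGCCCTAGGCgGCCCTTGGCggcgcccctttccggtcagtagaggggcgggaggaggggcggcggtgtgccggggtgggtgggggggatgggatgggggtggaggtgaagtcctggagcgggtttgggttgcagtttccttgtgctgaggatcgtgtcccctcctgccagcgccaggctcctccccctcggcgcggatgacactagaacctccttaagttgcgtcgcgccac
Gata2 promoter: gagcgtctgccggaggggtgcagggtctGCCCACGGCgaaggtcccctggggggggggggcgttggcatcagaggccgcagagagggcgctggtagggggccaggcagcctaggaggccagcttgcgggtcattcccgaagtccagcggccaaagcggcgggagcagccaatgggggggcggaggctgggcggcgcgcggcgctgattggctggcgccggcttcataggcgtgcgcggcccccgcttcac
Tfap2b promoter: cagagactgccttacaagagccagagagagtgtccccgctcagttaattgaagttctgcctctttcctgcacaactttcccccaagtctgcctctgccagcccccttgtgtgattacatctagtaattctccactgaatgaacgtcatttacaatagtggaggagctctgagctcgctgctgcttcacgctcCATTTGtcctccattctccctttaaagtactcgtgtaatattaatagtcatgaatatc
Hand2 promoter: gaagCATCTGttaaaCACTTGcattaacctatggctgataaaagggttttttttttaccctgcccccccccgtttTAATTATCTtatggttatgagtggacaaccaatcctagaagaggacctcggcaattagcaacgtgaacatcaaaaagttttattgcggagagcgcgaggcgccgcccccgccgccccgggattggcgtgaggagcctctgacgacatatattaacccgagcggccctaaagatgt

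The Gata3 window held 3 matches to the AP-2 site, which start at -246, -231 and -221 from the start site, and the Gata2 window 1 at -222. Of 32851 RefSeq windows of this length, 13.7% held at least 1. The first listed Gata2 start site held no match to the letters searched. Tfap2b held an E-box at -58, and 66.2% of all windows held one. Hand2 held E-boxes at -246 and -235, and a homeodomain site at -175 that overlaps a GATA box at -172, which 4.8% and 10.0% of all windows held. TATAAA, in 12.4% of all windows, was in none of the 4 shown. G and C made up 70.0% of the Gata3 window and 74.0% of the Gata2 window, against 46.4% in Tfap2b and 49.2% in Hand2. A match is a string of letters and does not show that a factor binds.

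The sources used here do not say that strand was kept, so reads of genes that overlap on opposite strands cannot be told apart. The transcript 4930412O13Rik lies within the span of Gata3 on the opposite strand, in the GENCODE annotation of GRCm38. It was counted 1, 5 and 4 times in the carotid body pools and 64, 45 and 80 times in the adrenal medulla pools, far less than Gata3. Inppl1 overlaps the end of Phox2a on the opposite strand. It was counted 334, 411 and 688 times in the carotid body pools and 487, 705 and 849 times in the adrenal medulla pools. Phox2a was counted 450, 954 and 1443 times in the carotid body pools and 755, 1855 and 1523 times in the adrenal medulla pools, so Inppl1 is not small beside it, and how many reads fall in the overlap is not known from gene totals. Hand2os1 overlaps Hand2 on the opposite strand and was not analysed here.

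The pools of the tissues overlapped for both homeodomain genes. Phox2a, which drives the noradrenergic programme through Th and Dbh, had 19.3, 44.7 and 57.6 RPKM in the carotid body pools and 34.9, 80.8 and 57.6 RPKM in the adrenal medulla pools. Pool 1 was the lowest of its tissue in both, and the ranges overlapped. The log2 difference was -0.55 with a 95% confidence interval of -1.56 to 0.45 (limma adjusted p = 0.451). Isl1, a LIM homeodomain gene of sympathetic and sensory neurons, had 16.2, 30.1 and 27.6 RPKM in the carotid body pools and 27.9, 27.1 and 14.2 RPKM in the adrenal medulla pools. The ranges overlapped almost wholly. For Isl1 the log2 difference was 0.10, with an interval of -0.66 to 0.87 (limma adjusted p = 0.884), and it was -0.20 without adrenal medulla pool 3 and -0.06 without carotid body pool 2.

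Insm1, a zinc finger repressor needed for the differentiation of chromaffin and other neuroendocrine cells, had 33.4, 34.3 and 24.1 RPKM in the carotid body pools and 23.3, 18.3 and 8.91 RPKM in the adrenal medulla pools. Every carotid body pool was higher than every adrenal medulla pool, by less than 1 RPKM between the nearest of them. The log2 difference was 0.90, with an interval of 0.12 to 1.69, and was not called (limma adjusted p = 0.102). With the pool number as a block it was called (limma adjusted p = 0.0233). It was also called without adrenal medulla pool 1, at 1.18 (limma adjusted p = 0.0459), and was 0.53 without adrenal medulla pool 3 (limma adjusted p = 0.147).

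The order of the 8 mean RPKM levels differed between the tissues. In the carotid body it ran from Hand2 (94.6 RPKM) through Phox2a (40.5), Insm1 (30.6), Isl1 (24.6), Gata2 (7.47) and Gata3 (2.61) to Hand1 (0.856) and Tfap2b (0.804). Neighbours whose ranges overlapped there were Phox2a with Insm1, Insm1 with Isl1 and Hand1 with Tfap2b. In the adrenal medulla it ran from Gata3 (72.0 RPKM) through Hand2 (60.3), Phox2a (57.7), Gata2 (35.8), Isl1 (23.1) and Insm1 (16.9) to Tfap2b (13.1) and Hand1 (12.7). There all neighbours overlapped except Gata2 with Isl1. By mean level, Gata3 stood above 19.0% of the genes tested in the carotid body libraries and above 90.2% in the adrenal medulla libraries. Hand2 stood above 92.6% of them in carotid body and 88.5% in adrenal medulla libraries.

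Levels were then set against Th, the rate-limiting enzyme of catecholamine synthesis, and Chga, the granule protein chromogranin A, in the same library as guides to the content of secreting cells. Th had 551, 434 and 646 RPKM in the carotid body pools and 887, 2489 and 2002 RPKM in the adrenal medulla pools. Chga had 495, 328 and 528 RPKM in the carotid body pools and 3427, 5620.1 and 5181 RPKM in the adrenal medulla pools. Both guides were lower in the carotid body, with log2 differences of -1.61 for Th (limma adjusted p = 0.0218) and -3.39 for Chga (limma adjusted p = 1.53e-04), so that a ratio to either is higher there for a gene at an equal level. The call of Th was lost in 4 of 13 alternatives, those without carotid body pool 1, carotid body pool 2, adrenal medulla pool 2, or a pair of pools (limma adjusted p of 0.0611 to 0.0878).

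Against Th, Gata3, Hand1 and Tfap2b were lower in all carotid body pools, Hand2 and Insm1 were higher in all of them, and Phox2a, Isl1 and Gata2 overlapped. Over all genes tested, 1.94% were lower and 61.5% were higher in all carotid body pools by this ratio (63.4% in either direction). Hand1 and Tfap2b passed the filter through the adrenal medulla pools alone. Their place among the lower genes is thus no support for this count, nor is their p below. Gata3 stood at 0.553%, 0.539% and 0.379% of Th in the carotid body pools and at 9.33%, 3.18% and 2.70% in the adrenal medulla pools. Adrenal medulla pool 1, with the least Th of its tissue, gave the highest ratio. Hand1 stood at 0.158%, 0.165% and 0.152% of Th in the carotid body pools and at 1.14%, 0.700% and 0.531% in the adrenal medulla pools. Tfap2b stood at 0.181%, 0.146% and 0.121% of Th in the carotid body pools and at 1.58%, 0.695% and 0.394% in the adrenal medulla pools. The ratios to Th of these 3 genes were 8.91-fold, 4.75-fold and 5.13-fold lower in the carotid body. Hand2 went the other way, at 15.1%, 19.4% and 18.0% of Th in the carotid body pools and at 4.55%, 3.24% and 2.99% in the adrenal medulla pools. The exact two-sided permutation test gave p = 0.1, its smallest value, for each of the 5 genes that did not overlap.

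Against Chga, Gata3 was the 1 gene of the 8 that was lower in all carotid body pools, where 0.831% of all genes tested were, 96.3% were higher in all of them and 97.2% went either way. Gata3 stood at 0.616%, 0.714% and 0.463% of Chga in the carotid body pools and at 2.42%, 1.41% and 1.04% in the adrenal medulla pools (exact permutation p = 0.1, the smallest possible). Hand1 overlapped, at 0.176%, 0.218% and 0.186% of Chga in the carotid body pools and at 0.296%, 0.310% and 0.205% in the adrenal medulla pools. Tfap2b overlapped too, at 0.201%, 0.194% and 0.148% of Chga in the carotid body pools and at 0.409%, 0.308% and 0.152% in the adrenal medulla pools. Phox2a, Isl1, Hand2, Gata2 and Insm1 were higher in all carotid body pools relative to Chga. Gata2, lower in the carotid body as a level, stood at 1.65%, 2.22% and 1.32% of Chga in the carotid body pools and at 1.05%, 0.728% and 0.589% in the adrenal medulla pools.

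Ddc, the enzyme that makes dopamine from L-DOPA, is a guide that differed in the opposite direction, with 777, 870.5 and 917 RPKM in the carotid body pools and 256, 282 and 210.4 RPKM in the adrenal medulla pools. Against it, 7 of the 8 genes were lower in all carotid body pools and Insm1 overlapped. Of all genes tested, 82.9% were lower, 4.21% were higher and 87.1% did not overlap. The order of Hand1 and Tfap2b was fixed in advance here, by the filter and by the higher Ddc of all carotid body pools. Gata3 stood at 0.392%, 0.269% and 0.267% of Ddc in the carotid body pools and at 32.3%, 28.0% and 25.7% in the adrenal medulla pools, and so was lower in all carotid body pools against Th, Chga and Ddc alike. Hand2 stood at 10.7%, 9.66% and 12.7% of Ddc in the carotid body pools and at 15.7%, 28.6% and 28.5% in the adrenal medulla pools, so its direction relative to a secreting cell gene turned with the guide.

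**Figure D3:**
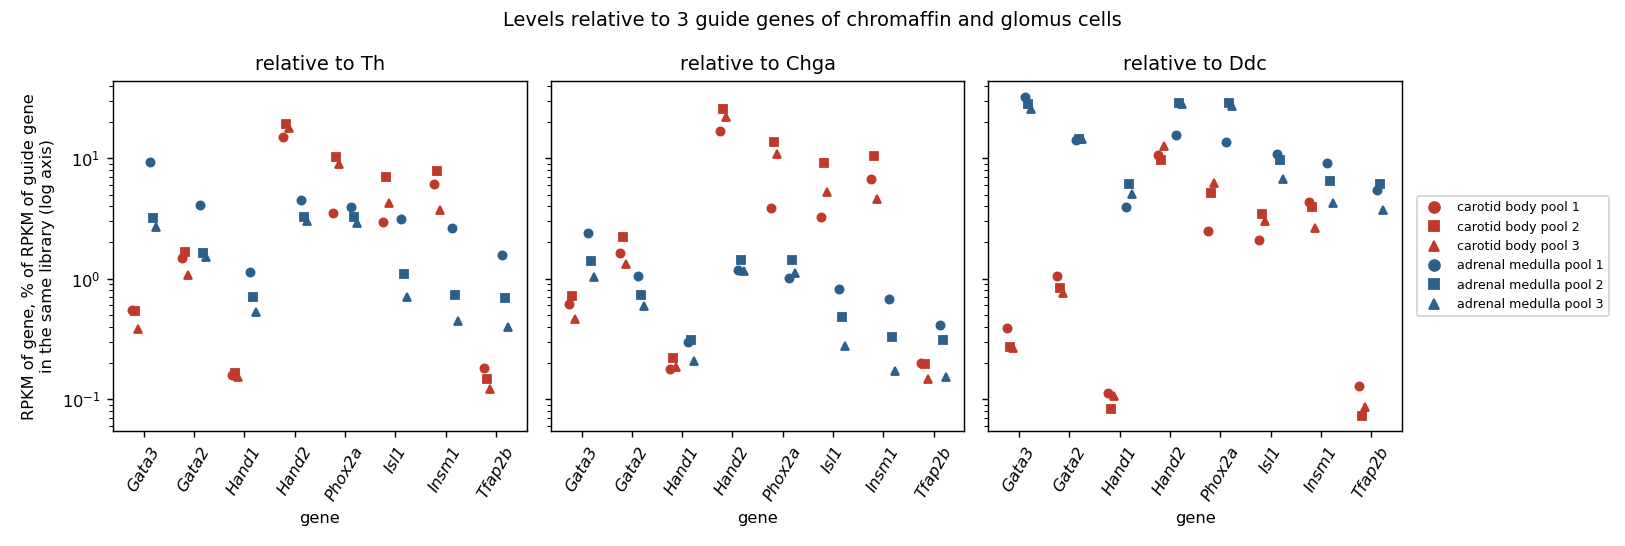
Level of each of the 8 genes as a percentage of the RPKM of Th (left), Chga (middle) or Ddc (right) in the same library (log y axis; x axis, gene), for 3 carotid body pools (red) and 3 adrenal medulla pools (blue). Gata3 is lower in all red pools in each panel, whereas Hand2 is higher in the left and middle panels and lower in the right one.

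Of 13 other transcription factors of the lineage, 9 were tested. The carotid body had 2 of them higher, 0 lower and 7 not called, a share called near the 21.9% of all genes tested, with a median log2 difference of -0.14. The 2 that were called are Epas1, which encodes the oxygen-regulated factor HIF-2alpha, at 3.41 (limma adjusted p = 2.71e-05), and Nr3c1, the glucocorticoid receptor, at 1.27 (limma adjusted p = 0.036). Vascular cells also express Epas1. Smooth muscle and pericyte markers summed to 2512 to 3039 RPKM in the carotid body pools and 97.1 to 100.1 RPKM in the adrenal medulla pools. Which cells carried the Epas1 transcript was not tested.

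Of 12 paralogues of the 8 genes, 4 passed the filter. In the carotid body 2 were lower and 2 higher, against 7.73% and 14.2% of all genes tested. Insm2 was under 1 RPKM in every carotid body pool, and Twist2 in every adrenal medulla pool. Each passed the filter through the other tissue alone, so its place in these counts is no support for them. Gata6, known from adrenal cortex and vessels, had 8.22, 7.25 and 5.31 RPKM in the carotid body pools and 21.6, 15.4 and 11.9 RPKM in the adrenal medulla pools. It was lower in all carotid body pools (log2 difference -1.10, limma adjusted p = 0.0203), as the adrenal cortex markers were. Insm2, the close relative of Insm1, had 0.533, 0.535 and 0.745 RPKM in the carotid body pools and 7.22, 9.46 and 3.86 RPKM in the adrenal medulla pools (log2 difference -2.22, limma adjusted p = 6.73e-04). Insm2 stood at 1.59%, 1.56% and 3.09% of Insm1 in the carotid body pools and at 30.9%, 51.6% and 43.4% in the adrenal medulla pools. These ratios did not overlap (exact permutation p = 0.1, the smallest possible). The filter had fixed the order of Insm2, and Insm1 was higher in all carotid body pools. The order of the ratio was thus set in advance, and its p is no support for it. Twist1 and Twist2, mesenchymal relatives of the HAND genes, were higher in the carotid body by 1.19 and 2.26 on the log2 scale, in the libraries in which all 8 fibroblast markers were higher.

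Among 20 partners and cofactors of these factors, 10 were not called, 8 had more transcript in the carotid body and 2 had less. Over all genes tested, 14.2% were higher and 7.73% lower. Id4 and Tal1, among the higher ones, were under 1 RPKM in every adrenal medulla pool. They passed the filter through the carotid body pools alone, so their place in this count is no support for it. The Id genes, which encode inhibitors of helix-loop-helix factors, did not move together. Id1, Id3 and Id4 were higher in the carotid body by 2.67, 2.62 and 2.28. Id2 was lower, with 117, 171 and 144 RPKM in the carotid body pools and 316, 252 and 366 RPKM in the adrenal medulla pools (log2 difference -1.10, limma adjusted p = 0.0145). Of the LIM-only proteins, which bridge factors such as GATA and helix-loop-helix proteins, Lmo2 and Lmo4 were higher in the carotid body by 2.13 and 1.33. Lmo1 was lower, at 12.8 ± 2.79 RPKM in the carotid body and 29.9 ± 6.12 RPKM in the adrenal medulla (SD over 3 pools; log2 difference -1.16, limma adjusted p = 0.0106). Lmo2, Id1 and Id3 are also expressed in vessels, whose endothelial markers were higher in the carotid body for 5 of 8.

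Of 18 known or proposed target genes, which include the guides, 11 were lower in the carotid body, 2 were higher and 5 were not called. Over all genes tested, 7.73% were lower and 14.2% higher. The median log2 difference of the target genes was -1.62. Pnmt differed by -9.60, Dbh, which makes noradrenaline, by -5.24, and the neuropeptide genes Npy and Cartpt by -4.35 and -3.59. The 2 that were higher are Ddc, at 1.78, and Rgs4, a regulator of G protein signalling, at 3.01.

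**Figure D4:**
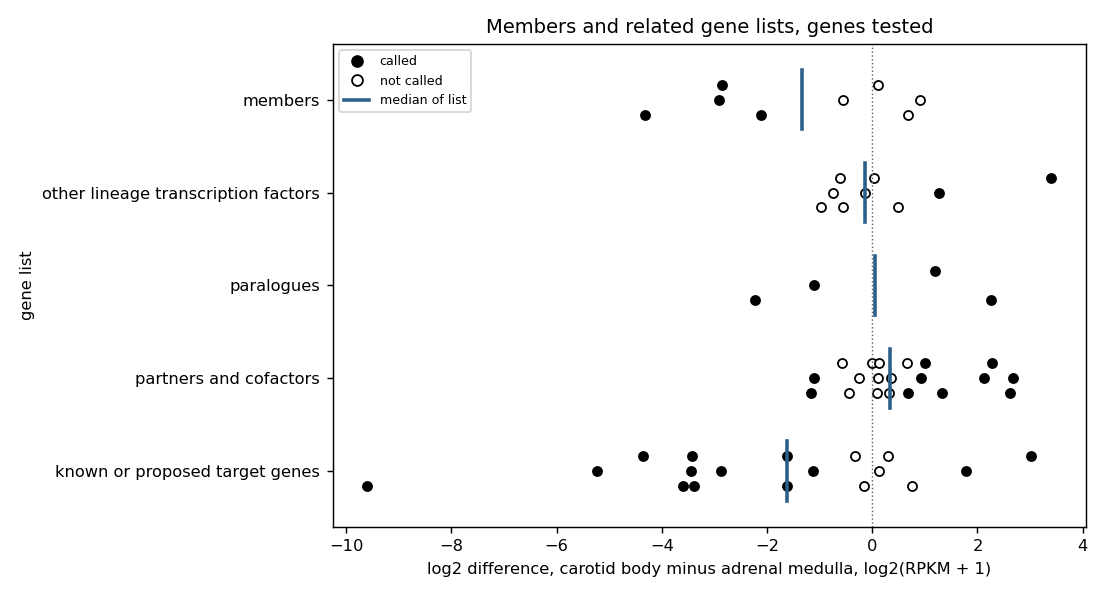
Log2 difference, carotid body minus adrenal medulla (x axis), of every tested gene among the 8 transcription factor genes (members) and 4 related lists (y axis), with called genes filled and the median of each list as a bar. The members and the target genes have medians of -1.33 and -1.62, and the other lineage factors one of -0.14.

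The genes most alike in pattern were ranked by the Pearson correlation of log2(RPKM + 1) over the 6 libraries, a description in which the difference between the tissues weighs most for the called genes. For Gata3 they were Ldoc1 (0.9997), Ly6d (0.9995) and Mpp3 (0.9995). Those for Gata2 were Abcb1b (0.9997), Cmtm2a (0.9996) and 1500009L16Rik (0.9991), and for Hand1 Ak5 (0.9990), Pld5 (0.9976) and Slc37a2 (0.9970). Tfap2b was followed by Gadd45b (0.9991), Hoxc4 (0.9989) and Ccsap (0.9988). Among the genes not called, Hand2 was followed by Trp53i11 (0.9934), Cic (0.9930) and Vat1 (0.9913), Insm1 by Zeb1 (0.9992), Ms4a4d (0.9961) and Cfdp1 (0.9959), Phox2a by Csdc2 (0.9908), Adar (0.9892) and Faim2 (0.9826) and Isl1 by Ywhah (0.9961), Naca (0.9864) and Cwc22 (0.9860).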

How the data were processed

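RNA of 3 carotid body and 3 adrenal medulla pools was sequenced; per the labels' protocols total RNA was amplified as aRNA (Amino Allyl MessageAmp II) before library construction. Reads were aligned with Bowtie 0.9.8 to mm9, per the submitters' processing notes; the counting tool is not given in the sources used here. The authors deposited RPKM values for 23511 entries with an mRNA length; 3217 entries without one hold read counts and were not used. RPKM times mRNA length and library depth gave a whole number of reads within 0.01 for 106276 of 106276 values. At 1 kb, 1 read is worth 0.0608 to 0.0754 RPKM; such precision covers counting error only.

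Genes with at least 1 RPKM in at least 3 libraries were tested with limma 3.58.1 (R 4.3.3, variance trend, no block) on log2(RPKM + 1), which understates differences of low genes; Python 3.11.15, pandas 2.3.3 and numpy 2.4.6 served for the ratios and counts. Tests were checked on simulated data. A fit in which the log2 level of Th, Chga or Ddc was subtracted from every gene was planned. It gives all genes the spread of the guide. The moderated degrees of freedom then reached 53424 for Th and Chga, against 8.47 in the main comparison, and those p-values are too small. For Ddc they were 10.4, near the main comparison, but each gene still carries the difference of Ddc itself. The calls (74.3% of genes for Th, 99.0% for Chga and 92.6% for Ddc) were not used, for Ddc so that the guides are treated alike, and ratios by library with an exact permutation test, chosen after seeing the data, take their place.

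All 8 members are named whatever their values, as are the guides, up to 4 called genes of each list with the largest differences, any gene of the lists of transcription factors and their partners, and the 3 genes most alike to each member. The members and lists were chosen with earlier results of these data known. Deviations from the tissue mean correlated at 0.259, 0.128 and 0.473 between pools of the same number, each over 0.1, the limit set for taking the numbers to pair the pools. Carotid body pool 2 correlated more with adrenal medulla pool 1 (0.291) than with its own number, so the pairing is not clear-cut. A fit with the pool number as a block was run as an alternative. Other alternatives were a pseudocount of 0.1 RPKM, no filter, median-ratio and quantile scaling, limma voom on reads, each pool left out in turn, and carotid body pool 2 and adrenal medulla pool 3 left out together, which earlier results had set apart. Some genes of the list of other lineage transcription factors are counted in it but not reported here.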

Additional observations from a re-analysis of the deposited data

How the results depend on the processing

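Gata3, Gata2, Hand1 and Tfap2b were lower in the carotid body and called under all 13 alternatives, with log2 differences of -4.76 to -4.21, -2.25 to -2.02, -3.83 to -2.62 and -3.96 to -2.68. Phox2a kept its direction and stayed uncalled, at -0.87 to -0.10 (limma adjusted p of 0.129 to 0.914), with -0.10 without carotid body pool 1 and -0.87 without carotid body pool 3 or adrenal medulla pool 1. Hand2 likewise ran from 0.42 without adrenal medulla pool 1 to 0.91 without adrenal medulla pool 2 (limma adjusted p of 0.0902 to 0.398). Insm1 kept its direction, with limma adjusted p of 0.0233 to 0.256. The replicate block left its difference at 0.90 and changed no other call among the 8 genes. Isl1 ran from -0.20 to 0.37 with 1 pool left out, turned at the second carotid body pool (-0.06) and at the third adrenal medulla pool (-0.20), and was -0.36 without both; the cause was not tested. The call of Th was lost in 4 of 13 alternatives, with limma adjusted p of 0.0611 to 0.0878.

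Over all genes, limma called 2173 to 3463 genes with 1 pool left out, against 2929 with all, with 1460 to 1999 higher in the carotid body and 692 to 1464 lower. Removing the second carotid body and the third adrenal medulla pool together gave 2067 lower, against 1033. In the fit relative to Th, 9917 genes were called, against 15911 with no filter, 5353 with the replicate block, 3067 to 12803 with 1 pool left out and 725 with that pair of pools removed. Those counts carry the spread of Th and were not used.

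Relative to Chga on the log2(RPKM + 1) scale, Hand1 was at 0.54 and Tfap2b at 0.49. A pseudocount of 0.1 gave -0.32 and -0.42, limma voom gave -0.44 and -0.57, and Tfap2b was at -0.036 with that pair of pools removed. The pseudocount of 1 exceeds the carotid body level of both genes. Depth limits Hand1 most, at 18 to 29 reads per carotid body pool.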
